A study of Homo sapiens with 4 samples.

Results

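H19 and ENSG00000240801 lie side by side at 11p15, and they were found in the table as every transcript that GENCODE release 44, mapped to the build GRCh37, assigns to either gene. The search gave 12 of the 19835 transcripts measured, 11 of H19 and 1 of ENSG00000240801. RNA was sequenced from HUH7, an established hepatocellular carcinoma line grown in DMEM with glucose, gentamicin, HEPES and heat-inactivated fetal bovine serum, with no treatment and no control arm. The 4 libraries form 1 group and are named replicates 1 to 4, and the study used them to pick lncRNAs above 5 FPKM for a knockdown screen. FPKM are fragment numbers divided by transcript length and by the size of the library. The labels name both polyA RNA and a strand-specific Ribo-Zero preparation, and the study's methods give Ribo-Zero. Titles of replicates 2 and 4 carry the letter H and those of replicates 1 and 3 the letter L, which the submitters call internal names and not variables. Whether each library came from its own culture is not stated, and the p-values therefore reflect library-to-library spread alone, part or all of which may be technical. Errors are SD over n = 4 libraries unless stated otherwise.

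H19 and IGF2 are the textbook pair of oppositely imprinted neighbours. H19, a spliced and polyadenylated lncRNA, is normally transcribed from the maternal chromosome and serves as the precursor of miR-675, and it has been described to bind let-7 microRNAs. IGF2 encodes insulin-like growth factor 2, a fetal growth factor that is normally transcribed from the paternal chromosome in most tissues. Both genes use shared enhancers beyond H19, and a control region between the genes is methylated on 1 chromosome and bound by CTCF on the other. Both genes are strongly active in fetal liver and can be active again in liver cancer. ENSG00000240801 is annotated as a non-coding gene, but its only transcript lies on exons of IGF2 on the same strand. FPKM do not tell the parental chromosomes apart, so nothing below concerns imprinting in HUH7 itself.

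The transcript of ENSG00000240801 stood far above H19 in each library. ENST00000430034 had 2375, 2219, 1862 and 1973 FPKM in replicates 1 to 4, a mean of 2107 ± 233 FPKM. The 11 H19 transcripts together had 3.87, 7.52, 3.91 and 8.40 FPKM in replicates 1 to 4, a mean of 5.93 ± 2.38 FPKM. The lowest library of ENSG00000240801 was thus far higher than the highest of H19. FPKM are scaled by transcript length, but not for uneven coverage along a transcript or for fragments of an overlapping mRNA. ENST00000430034 has 373 nt, against 2326 nt for the H19 transcript ENST00000414790. In estimated fragments the means were about 2930 for ENSG00000240801 and 63.4 for H19, so the size of the FPKM ratio rests in part on the short model. The ratio of ENSG00000240801 over H19 was 614, 295, 476 and 235 in replicates 1 to 4. On the scale of log2(FPKM + 1) the difference within a library averaged 8.31 ± 0.54 and was positive in 4 of 4 libraries. The exact two-sided sign-flip permutation test gave p = 0.125, which is the smallest p that 4 libraries allow.

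**Figure D1:**
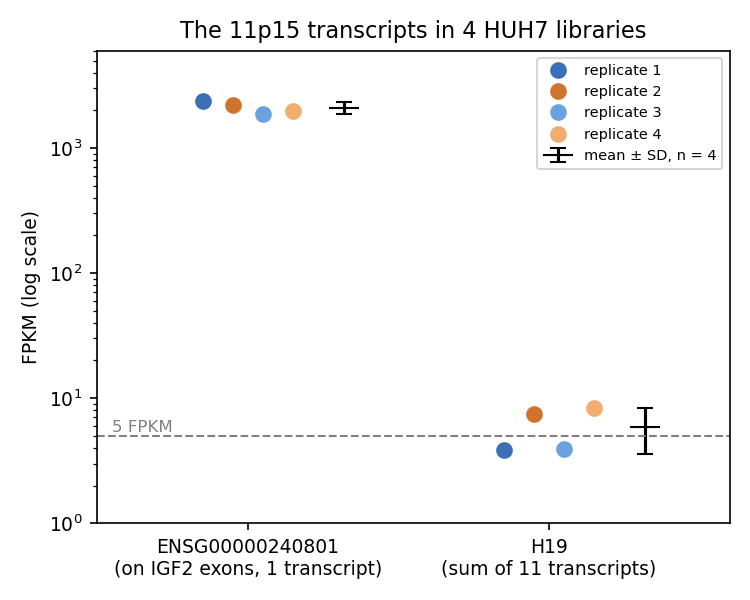
FPKM of ENSG00000240801 (left) and of H19, summed over its transcripts (right), on a log scale. Points are the 4 libraries, the black mark is the mean ± SD, and the dashed line is 5 FPKM. ENSG00000240801 lies between 1862 and 2375 FPKM, and H19 has 2 libraries above and 2 below the line.

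Against the study's level of 5 FPKM, ENSG00000240801 was above and H19 could not be placed. In a limma fit over 7124 genes, 50.3% of the genes were above 5 FPKM and 38.5% below it at an adjusted p of 0.05. ENSG00000240801 exceeded the level by 8.45 (SE 0.10) on the log2(FPKM + 1) scale, with a limma adjusted p of 1.88e-17. H19 differed from it by 0.14 (SE 0.22), with a limma adjusted p of 0.558. Replicates 2 and 4 of H19 were above 5 FPKM and replicates 1 and 3 below it. Without replicate 4 the H19 difference was -0.028, and with the libraries divided to the same total, which lowers every value, it was -0.59 with a limma adjusted p of 0.0105, so the side of 5 FPKM on which H19 falls depends on the scale of the values.

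In the order of all 11465 measured genes by mean FPKM, ENSG00000240801 was 22nd and H19 was 3814th. Among the genes tested, H19 was at the 46.4th percentile, and in single libraries it was between the 40.4th and the 52.9th. The median tested gene had a mean of 7.61 FPKM. The neighbours in the order were ENSG00000253829 with 2230 ± 380 FPKM and ENSG00000203402 with 2084 ± 200 FPKM for ENSG00000240801, and ENSG00000227598 with 5.93 ± 2.12 FPKM and ENSG00000251034 with 5.91 ± 1.27 FPKM for H19. Each of these 4 neighbours lay within the spread of the gene it stood next to.

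ENST00000430034 cannot be told apart from IGF2 mRNA over nearly its whole length. It runs at chr11:2150351-2151194 (GRCh37) on the minus strand and has an exon of 44 nt, an intron of 471 nt and an exon of 329 nt. Of its 373 nt, 373 lie on IGF2 exons and 0 on IGF2 coding sequence. Its first base is 3026 nt past the last coding base of IGF2 and its last base 9 nt before the end of the IGF2 transcript, inside the 4112 nt last exon of IGF2, in the 3′ UTR. Of 10 annotated IGF2 transcripts, 3 have a last exon that spans it. When the transcript was read in steps of 24 bases starting at each position, 334 of 350 such 24-mers (95.4%) were also in IGF2 mRNA. The remaining 16 cross the exon junction. None of the 24-mers occurred at another place in the genome.

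**Figure D2:**
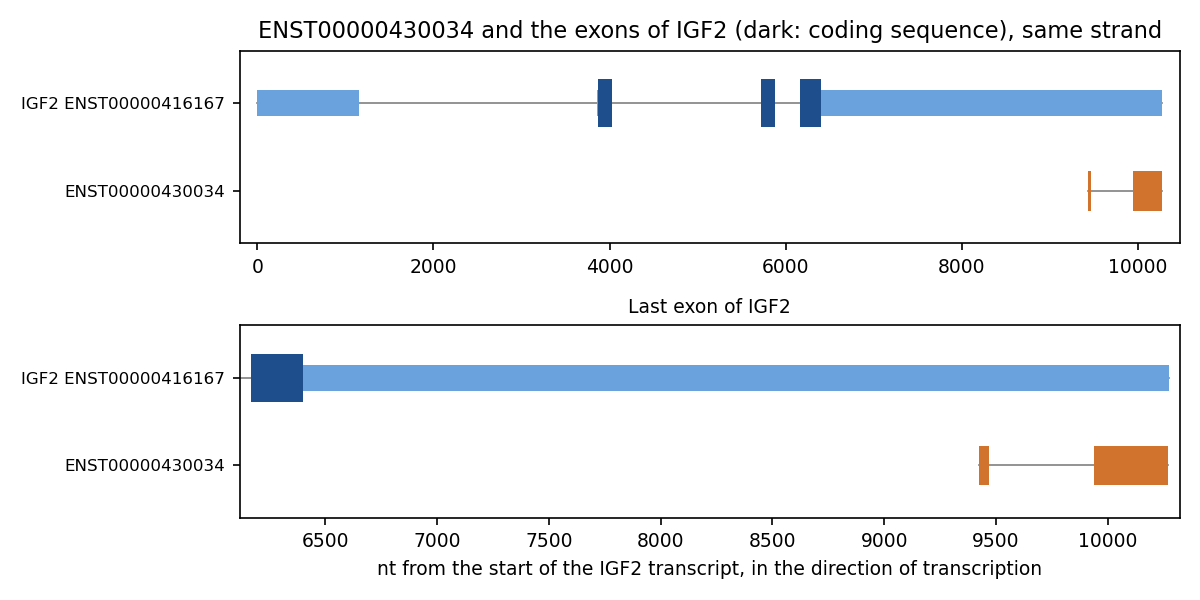
Exons of the IGF2 transcript ENST00000416167 (blue, coding sequence dark) and of ENST00000430034 (orange), in nt from the IGF2 start in the direction of transcription, for the whole transcript (upper panel) and its last exon (lower panel). Both exons of ENST00000430034, of 44 and 329 nt, lie in the untranslated part of the last IGF2 exon.

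The alignment reference of these values held non-coding transcripts only, and 0 of the 10 IGF2 transcripts had a value in the table. A fragment of IGF2 mRNA thus had no other place to go in this reference. How much of the 2107 FPKM came from IGF2 mRNA was not tested, since the table gives no value per position or junction. Other transcripts with this layout were often above 5 FPKM. Of 89 transcripts of non-coding genes that lay wholly on exons of a coding transcript on the same strand, 61 (68.5%) had a mean above 5 FPKM, with a median of 18.4 FPKM, against 27.6% of the 18373 transcripts matched to the annotation. ENST00000430034 had the highest mean of the 89 and the 18th highest of the 18373. These are descriptions of the table, and no test was made of them.

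H19 lies at chr11:2016396-2022936 (GRCh37) on the minus strand, and the first base of its transcript ENST00000414790 is 132121 nt from that of ENST00000430034. In the annotation its 11 transcripts differ in where they start, in retained introns and in the acceptors of their last exons. The values belong to older versions of all 11, so the exons behind them may differ from those described here and below. Of the 11 models, 9 hold the hairpin of MIR675, at chr11:2017989-2018061 in the first large exon. These 9 carried the whole H19 value in each library, because the 2 models without the hairpin, ENST00000428066 and ENST00000431095, were listed at 0. The mature microRNAs cut from the hairpin are shown because the precursor is the product for which H19 is best known. They are given as in RefSeq, with bases 2 to 8, the seed that pairs with targets, in capitals.
hsa-miR-675-5p: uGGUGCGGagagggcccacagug
hsa-miR-675-3p: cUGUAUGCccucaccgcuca
The seeds of the 2 arms differ. The microRNAs themselves were not measured in these libraries, which were summarised over non-coding transcripts, and an H19 value says nothing of how much precursor was cut.

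H19 FPKM were divided over few transcripts, and over different ones in different libraries. ENST00000414790, with 5 exons, had 0, 3.86, 0 and 4.38 FPKM in replicates 1 to 4, a mean of 2.06 FPKM. ENST00000412788 had 3.65, 0, 3.18 and 0.50 FPKM in replicates 1 to 4, a mean of 1.83 FPKM. ENST00000442037 had 0, 2.03, 0 and 3.52 FPKM in replicates 1 to 4, a mean of 1.39 FPKM. Replicates 2 and 4 were thus led by ENST00000414790 and ENST00000442037, and replicates 1 and 3 by ENST00000412788. ENST00000412788 made up 94.3% and 81.3% of the H19 sum in replicates 1 and 3, against 0% and 5.95% in replicates 2 and 4. By FPKM, 13.2% of all transcripts tested were lower in both replicates 2 and 4 than in both replicates 1 and 3, and 14.6% were higher. ENST00000414790 made up 51.3% and 52.1% of the sum in replicates 2 and 4 and was listed at 0 in replicates 1 and 3. Over the 4 libraries the shares averaged 45.4% ± 49.3 for ENST00000412788, 25.9% ± 29.9 for ENST00000414790 and 17.2% ± 20.8 for ENST00000442037, so no transcript led beyond its spread.

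**Figure D3:**
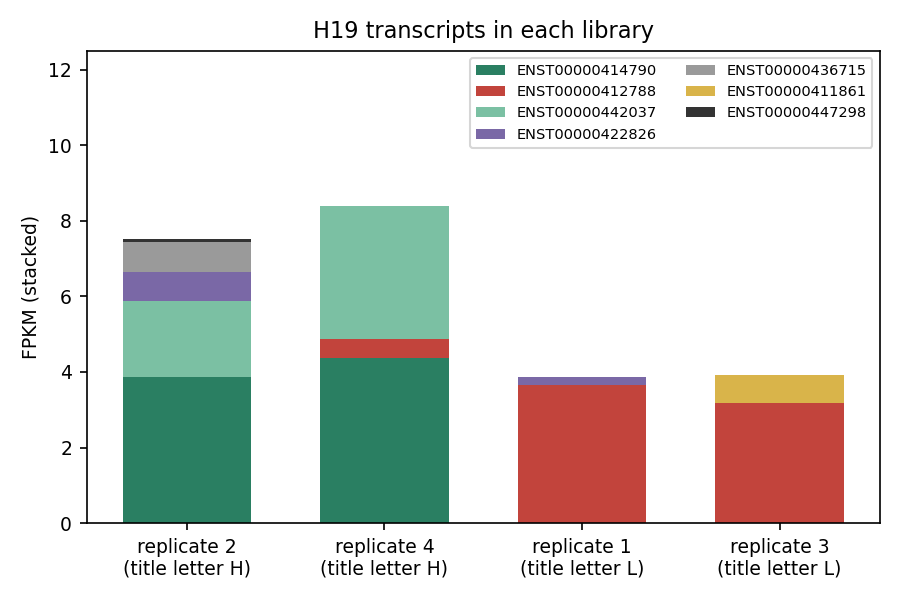
FPKM of the H19 transcripts, stacked from 0, in the libraries with title letter H (replicates 2 and 4, left) and L (replicates 1 and 3, right). The H libraries reach 7.52 and 8.40 FPKM with ENST00000414790 at the base, and the L libraries reach 3.87 and 3.91 FPKM, nearly all of it ENST00000412788.

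The remaining H19 transcripts were low. ENST00000422826, which begins at the distant first exon, had 0.22, 0.76, 0 and 0 FPKM in replicates 1 to 4. ENST00000436715, with a retained intron, was listed only in replicate 2, at 0.79 FPKM, and ENST00000411861, also with a retained intron, only in replicate 3, at 0.73 FPKM. ENST00000447298 was listed only in replicate 2, at 0.08 FPKM. ENST00000417089, ENST00000428066, ENST00000431095 and ENST00000439725 were listed at 0 in all 4 libraries. Transcripts that start at the near first exon held 94.3%, 89.9%, 100% and 100% of the H19 sum in replicates 1 to 4, and the 4 retained-intron models held 0.87 FPKM in replicate 2, 0.73 FPKM in replicate 3 and 0 in replicates 1 and 4. No H19 transcript exceeded 5 FPKM in any library. In a limma fit over 11435 transcripts, 43.3% of which were below 5 FPKM and 41.9% above it, 6 of the 11 H19 transcripts passed the filter of a mean of 0.1 FPKM, and 6 were below 5 FPKM. Their limma adjusted p lay between 2.91e-06 for ENST00000411861 and 0.0160 for ENST00000414790. The call of ENST00000414790 was lost without replicate 1 or without replicate 3, with limma adjusted p of 0.0735 and 0.0639, and that of ENST00000412788 was lost without replicate 2, at 0.0523.

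**Figure D4:**
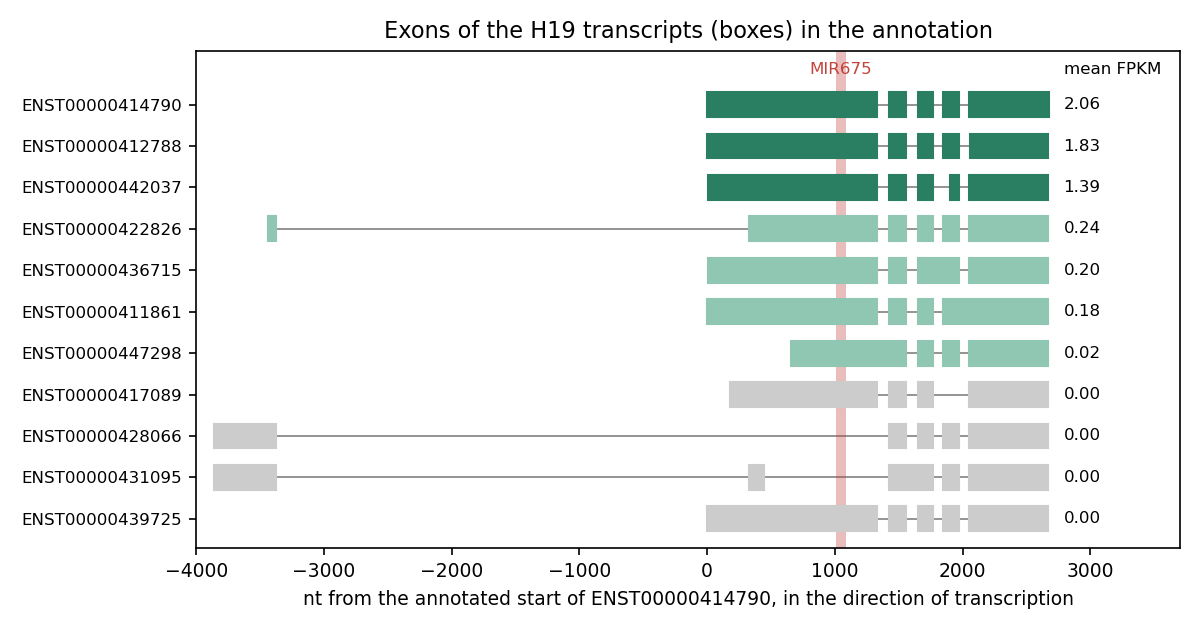
Exons of the 11 H19 transcripts as annotated, in nt from the start of ENST00000414790 in the direction of transcription. The mean FPKM of each is at the right, and the MIR675 hairpin is a red band. Dark green marks a mean of at least 1 FPKM, light green a lower one and grey a listed 0. The 3 transcripts in dark green, at 2.06, 1.83 and 1.39 FPKM, share the splice sites of their first 3 exons.

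The transcripts that took turns differ at splice acceptors, and the 4 junctions are shown because they are where these transcripts part. Each line gives the last 12 bases of the upstream exon in lower case and the first 12 bases of the downstream exon in capitals, on the minus strand of chromosome 11 (GRCh37).
Upstream acceptor of the last exon: cggctctggaagGTGAAGCTAGAG
Downstream acceptor of the last exon: cggctctggaagCTAGAGGAACCA
Usual acceptor of exon 4: acaacatgaaagAAATGGTGCTAC
Shortened exon 4: acaacatgaaagCTTGGAAATGAA
Both last-exon junctions leave exon 4 at base 2017106, and they enter the last exon at 2017024 and at 2017018, which are 6 nt apart, so that the capitals of the downstream form begin within those of the upstream form. In the annotation, ENST00000412788 is the only model with the downstream acceptor, and 9 models enter at the upstream one, 8 of them from exon 4. Both junctions of exon 4 leave exon 3 at 2017309, and ENST00000442037 alone enters at 2017171, 57 nt past the usual 2017228. All 11 introns of the H19 models have GT and AG at their ends. Transcripts with the upstream acceptor summed to 7.52 and 7.90 FPKM in replicates 2 and 4, against 0.22 and 0 FPKM in replicates 1 and 3. Those with the usual acceptor of exon 4 summed to 3.87, 4.70, 3.91 and 4.88 FPKM in replicates 1 to 4, and so were present in all libraries.

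Little sequence separates these transcripts, which limits how far the split can be read. Of the 2286 24-mers of ENST00000412788, 19 (0.831%) were absent from ENST00000414790, and in the other direction 36 of 2303 (1.56%) were. ENST00000442037 stands further apart, with 103 (4.51%) of the 24-mers of ENST00000412788 absent from it and 46 of its own 2229 (2.06%) absent from ENST00000412788. At the estimated depth of 4510000 to 5030000 fragments a library, H19 had about 80.0 and 93.6 fragments in replicates 2 and 4 and about 38.6 and 41.5 fragments in replicates 1 and 3. If fragments fell evenly, under 1 of them per library (0.321 to 0.778) would start on a 24-mer found in ENST00000412788 and not in ENST00000414790, and 0.603 to 1.46 on one of the reverse kind. The reverse kind also takes in 24-mers at the transcript ends, where ENST00000414790 reaches further. Fragments longer than 24 bases can reach the differing bases from further off, so these numbers understate how many could tell the transcripts apart. RSEM divides shared fragments by estimation. The gene sum does not depend on that division beyond the lengths of the models, which the table gives in older versions than the annotation for all 11 H19 transcripts.

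The H19 sum split along the title letters and ENSG00000240801 did not. H19 averaged 7.96 FPKM in the H libraries and 3.89 FPKM in the L libraries, a ratio of 2.05, and the ranges did not overlap. Of all genes tested, 15.2% had both H libraries above both L libraries and 12.6% both below. Of the 3970 genes with a mean of at least 5 FPKM, 20, with H19 among them, had such a separation with a ratio at least that of H19. The difference of H19 was 0.87 (SE 0.35) on the log2(FPKM + 1) scale, with limma p = 0.0395 before and 1 after adjustment, and the exact permutation test of 2 libraries against 2 gave p = 0.333, the smallest it allows. With the highest H19 transcript, ENST00000414790, in place of the sum the difference was 2.35, with a limma adjusted p of 0.776. On leaving out each library the difference of the H19 sum was 0.80 to 0.94. ENSG00000240801 averaged 2096 FPKM in the H libraries and 2119 FPKM in the L libraries, with overlapping ranges and an exact permutation p of 1. By limma 0 genes differed between the letters in either direction at an adjusted p of 0.05 (0.0% of those tested), and 338 (4.74%) did at an unadjusted p of 0.05. What the letters stand for was not given, and their part in the H19 values was not tested.

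By transcript, the letter differences of H19 went both ways. ENST00000414790 had 3.86 and 4.38 FPKM in the H libraries against a listed 0 in both L libraries, a log2(FPKM + 1) difference of 2.35 (SE 0.38) with a limma adjusted p of 0.605. ENST00000412788 had 0 and 0.50 FPKM in the H libraries against 3.65 and 3.18 FPKM in the L libraries, a difference of -1.85 (SE 0.42) with a limma adjusted p of 0.799. ENST00000442037 had 2.03 and 3.52 FPKM in the H libraries against a listed 0 in both L libraries, a difference of 1.89 (SE 0.40) with a limma adjusted p of 0.746. None of these passed. Of all transcripts tested, 14.6% had both H libraries above both L libraries and 13.2% both below, and 4.8% differed at an unadjusted limma p of 0.05. By limma 1 transcript in each direction passed at an adjusted p of 0.05 (0.00875% each), neither of them from H19.

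Relative to genes of like level, the spread of ENSG00000240801 was in the lower part and that of H19 in the upper part. The coefficient of variation was 11.03% for ENSG00000240801 and 40.1% for H19. Of 21 other genes within 1.5-fold of the mean of ENSG00000240801, 28.6% had a lower coefficient of variation, with a median of 12.97%. Of 803 genes within 1.5-fold of the mean of H19, 72.2% had a lower one, with a median of 29.7%. Counting alone, at about 2930 fragments for ENSG00000240801 and 63.4 for H19, would give 1.85% and 12.6%. Both genes varied more than these, and the fragment numbers are estimates.

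The genes whose pattern over the 4 libraries was nearest to each were found among the 3969 other genes with a mean of at least 5 FPKM, by the Euclidean distance of centred log2(FPKM + 1). The nearest to ENSG00000240801 were RHOXF1-AS1 (distance 0.058), HCG18 (0.064), TUG1 (0.070), RP6-206I17.1 (0.073) and TMEM202-AS1 (0.076). TUG1, a widely expressed lncRNA, had 387, 348, 304 and 304 FPKM in replicates 1 to 4, with the same 2 libraries highest as in ENSG00000240801. The nearest to H19 were ENSG00000259171 (distance 0.044), ENSG00000248176 (0.14), C20orf204 (0.14), LINC01411 (0.16) and ENSG00000260957 (0.22). ENSG00000259171 had 301 and 328 FPKM in replicates 2 and 4 and 176 and 176 FPKM in replicates 1 and 3. With 4 libraries these distances are descriptions. The genes were picked for their likeness, so sharing the order of the libraries follows from the choice.

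Around the pair, 20 other genes within 1 Mb of H19 or ENSG00000240801 had values, and few of them were high. Of the 20, 13 were tested and the other 7 were listed at 0 in all libraries. By limma 1 of the 13 was above 5 FPKM, 7 were below and 5 could not be placed. Among all genes tested, 50.3% were above and 38.5% below. LINC01150, a lncRNA 86.5 kb from H19, had 45.9, 48.9, 32.8 and 23.4 FPKM in replicates 1 to 4 and was the gene above, with a limma adjusted p of 4.46e-10. KRTAP5-AS1, annotated antisense to keratin-associated protein genes, averaged 5.58 ± 1.86 FPKM, TOLLIP-DT, divergent from TOLLIP, 6.48 ± 1.45 FPKM, and ENSG00000229512 5.07 ± 2.76 FPKM, and these could not be placed. None of the 20 genes reached the level of ENSG00000240801.

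**Figure D5:**
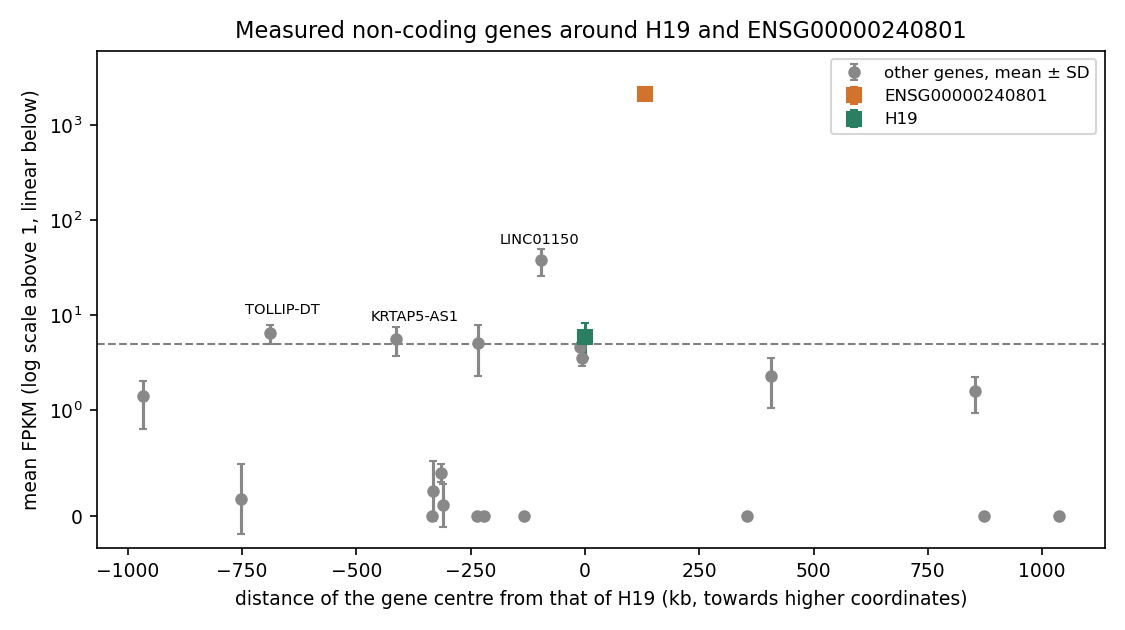
Mean FPKM (± SD, n = 4) of H19, ENSG00000240801 and the other measured non-coding genes around them, by the distance of the gene centre from that of H19 in kb. The vertical axis is logarithmic above 1 and linear below, and the dashed line is 5 FPKM. ENSG00000240801 stands at 2107 FPKM, LINC01150 at 37.7 FPKM and H19 at 5.93 FPKM among neighbours mostly below the line.

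The closest neighbours of H19 were chosen for description after their values were seen. LINC01219, on the opposite strand and 1.496 kb past H19, had 3.05, 4.49, 3.61 and 3.19 FPKM in replicates 1 to 4. MRPL23-AS1, 5.17 kb past it on the same strand and antisense to a mitochondrial ribosomal protein gene, had 5.05, 4.71, 4.11 and 4.87 FPKM. Both means lay within 1 SD of that of H19, and neither could be placed against 5 FPKM. Neither showed the H19 pattern, since the highest library was replicate 2 for LINC01219 and replicate 1 for MRPL23-AS1. KCNQ1DN, from the second imprinted domain of 11p15, was listed at 0 in all libraries, and so were CD81-AS1, PRADX, CARS1-AS1, ENSG00000230834, ENSG00000231487 and ENSG00000249086.

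Of 29 imprinted lncRNAs looked for, 11 had values and 5 were tested. By limma 4 were above 5 FPKM and 1 below, beside 50.3% and 38.5% of all genes, and the median of the 5 tested was 50.6 FPKM against 7.61 FPKM over all genes tested, with the other 6 listed at 0. MEG8, from the DLK1 and MEG3 domain, averaged 941 ± 98.8 FPKM, and MEG3, the maternally expressed lncRNA of that domain, 50.6 ± 3.28 FPKM. PWRN1, from the Prader-Willi region, averaged 52.7 ± 16.1 FPKM. All 3 were above H19 and below ENSG00000240801 in each library. GNAS-AS1 was the gene below, at 2.68 ± 0.90 FPKM, and MEG9, PWRN2, PWRN4, PWAR6, ZFAT-AS1 and KCNQ1DN were listed at 0.

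H19 has been described to bind let-7, and LIN28B, which blocks let-7, and the IGF receptor belong to the same growth axis, so their non-coding neighbours and host genes were looked up too. Of 12 such genes, 8 had values and 6 were tested. By limma 4 of the 6 were above 5 FPKM and 2 below, beside 50.3% and 38.5% of all genes tested. The median was 60.5 FPKM over the 6 tested and 5.82 FPKM over the 8 with values. Named beyond the rule, MIRLET7DHG, by name also a let-7 host gene, and IGFBP7-AS1 missed the filter. Their means were 0.085 and 0.0775 FPKM. MIRLET7IHG, host of a let-7 microRNA, averaged 243 ± 24.7 FPKM, MIR100HG, a host gene of let-7, miR-100 and miR-125b, 141 ± 28.8 FPKM, and MIR99AHG, a like host gene on another chromosome, 111 ± 13.6 FPKM. PRR34-AS1 was taken in the list for the host gene of let-7b, and whether its transcripts hold that microRNA was not checked. It had 8.52, 14.1, 3.05 and 14.4 FPKM in replicates 1 to 4 and was above with a limma adjusted p of 0.0257. That call was lost in 7 of 12 alternatives, among them without replicate 2 (limma adjusted p of 0.187) and without replicate 4 (0.164). IRAIN, an antisense transcript of the IGF1 receptor gene, and LIN28B-AS1 were those below. IRAIN had 0, 0, 4.97 and 1.56 FPKM in replicates 1 to 4 and LIN28B-AS1 averaged 0.42 ± 0.34 FPKM.

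The label of the cells was checked against marker lncRNAs. Of 10 hepatocyte or fetal liver markers reported here, 7 were above 5 FPKM and 3 below by limma, beside 50.3% and 38.5% of all genes. HULC, LINC00261 and LINC01485 led, with means of 693, 377 and 176 FPKM. Named beyond the rule, the 3 below were FAM99A, FAM99B and LINC00844, with means of 0.24, 0.41 and 0.40 FPKM. The summed level of the 10 was 1242 to 1418 FPKM. Summed levels were 92.9 to 137 FPKM for 4 blood markers, of which PCED1B-AS1 gave 101 FPKM, LINC00861 gave 11.1 FPKM and MIR155HG was listed at 0. They were 20.5 to 30.1 FPKM for 3 muscle or stroma markers, mostly CARMN at 22.3 FPKM, with LINCMD1 at 0, and 2.69 to 4.34 FPKM for 4 neural markers, with MIR124-2HG and MIR9-3HG at 0. By limma 2 of 2 blood markers tested, 1 of 2 muscle or stroma markers tested and 0 of 1 neural markers tested were above 5 FPKM. No coding marker such as albumin was measured here.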

How the data were processed

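RNA of 4 HUH7 libraries was measured. Per the study's methods and the submitters' processing notes, the authors aligned reads to Ensembl 68 non-coding transcripts on hg19 (GRCh37) with Bowtie 1.01 and summarised them with RSEM 1.2.3. For coding genes the study's methods name the full Ensembl 68 annotation, and those values were not used here. The deposited values are FPKM with no further scaling described, and no counts. No source used here gives the strand setting. Identifiers were matched without version to GENCODE release 44 on GRCh37, where 18373 of 19835 matched, 11445 with the same version. Gene values are sums over transcripts.

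Log2(FPKM + 1) was tested for genes or transcripts whose mean reached 0.1 FPKM, against log2(5 + 1), and between title letters, with limma 3.58.1 in R 4.3.3 (moderated test with a mean-variance trend, two-sided, Benjamini-Hochberg over all features tested). Differences on this scale understate those of low transcripts. The tests were tested on simulated data. Against 5 FPKM, 79.1% of shifts of 1 and 98.5% of shifts of 2 on the log2 scale were recovered. Between letters, 5.97% of shifts of 1 and 59.7% of shifts of 2 were. The letter shifts were placed only in transcripts of higher level than the H19 sum and the H19 transcripts, so the letter shares do not cover H19. Depth was estimated from the steps between low FPKM values at lengths less 81 nt, where 65.9% to 67.2% of such values came within 0.05 of whole fragments, so the depths are estimates and cover counting error only. Overlaps and sequences were read from GRCh37 and microRNAs from RefSeq (GRCh38.p14) with Python 3.11.15. Members, lists, markers and tests were chosen with earlier results of these data known. Named by rule were the members, genes of the 11p15 window with a mean of at least 5 FPKM, the 3 highest and those at 0 of the other lists, and the 5 genes nearest in pattern and those next in level. Exceptions are stated, and 1 liver marker of the list is not reported here. Alternatives were other pseudocounts, filters, thresholds, scalings and gene values, limma without trend and leaving out each library.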

Additional observations from a re-analysis of the deposited data

Results flagged for a closer look

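In 4 of 37 values tested, 1 library stood apart from the other 3, and chance flags about 1 in 20 groups. That rate does not apply to the H19 transcripts below. Each had a value in 1 library only, and the rule always flags such a value. ENST00000411861 of H19 had 0.73 FPKM in replicate 3 and was listed at 0 in the others. ENST00000436715 of H19 had 0.79 FPKM and ENST00000447298 of H19 0.08 FPKM, both in replicate 2 and both listed at 0 in the others. HULC, the liver marker, had 597 FPKM in replicate 3, against 716 to 734 FPKM in the others.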

How the results depend on the processing

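ENSG00000240801 was above 5 FPKM and above H19 in all alternatives run. H19 against 5 FPKM was 0.14 on the log2 scale, and -0.59 with libraries divided to the same total (limma adjusted p = 0.0105), -1.41 with the highest transcript in place of the sum (0.00526), 1.73 against 1 FPKM (5.14e-06) and -0.73 against 10 FPKM (0.00667). Leaving out each library gave -0.028 (without replicate 4) to 0.29. The letter difference of ENSG00000240801 changed sign at 0.062 with libraries divided to the same total, and leaving out each library gave -0.18 to 0.17. The count of 6 H19 transcripts below became 3 with a filter of 1 FPKM, 3 against 1 FPKM, and 3 to 6 on leaving out each library. Against 1 FPKM ENST00000412788 was at 0.22 and ENST00000414790 at 0.18, neither passing. Of the 11p15 genes, 3 were below with a filter of 1 FPKM, 7 above and 4 below against 1 FPKM, and 12 below against 10 FPKM. The imprinted list had 0 below 1 FPKM. The let-7 and IGF list had 4 below with no filter, 1 with a filter of 1 FPKM, 1 below 1 FPKM, and 3 to 4 on leaving out each library. Its count of 4 above became 3 wherever PRR34-AS1 lost its call, and PRR34-AS1 was at -0.074 with libraries divided to the same total and -0.18 against 10 FPKM. A stricter filter tests fewer genes, and for the other changes the cause was not tested. H19 had no transcript of the annotation's version, and no alternative limited to equal versions was run. No paired analysis was possible because there is 1 group.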
